A study of Homo sapiens with 28 samples.

Results

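H3K27ac at CCN1 (CYR61), CCN2 (CTGF) and ANKRD1 (CARP), 3 genes long used as readouts of YAP and TAZ activity, was examined in the peak lists of SW872 cells, an established human liposarcoma line. No H3K27ac value entered the choice rule, which named the genes and their start sites. A peak was counted at a promoter when its summit lay within 2 kb of the gene's start site, and in the neighbourhood when it lay within 100 kb. The start sites in GRCh37/hg19 were chromosome 1, position 86046444 for CCN1 on the plus strand, chromosome 6, position 132272513 for CCN2 on the minus strand, and chromosome 10, position 92681033 for ANKRD1 on the minus strand. In all, 494 of the 654580 peaks in 14 lists had a summit within 100 kb of the 3 start sites, and they fell into 82 of the 138849 regions obtained by merging overlapping peaks of all lists.

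The nuclear coactivators YAP and TAZ are held in check by the Hippo kinase cascade and reach DNA by binding TEAD transcription factors, often beside AP-1. CCN1 and CCN2 encode secreted matricellular proteins that act on adhesion, migration and matrix deposition, and ANKRD1 encodes an ankyrin repeat protein of the nucleus and the muscle sarcomere. Acetylation of histone H3 at lysine 27 marks active promoters and enhancers, and a promoter typically shows a dip over its start site, where the nucleosome is displaced.

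ChIP-seq with an H3K27ac antibody label had been performed in biological duplicate on 7 stably transduced SW872 populations, each with its own peak list per library. The groups were the empty vector; TAZ4SA and YAP5SA, active forms of TAZ and YAP whose inhibitory phosphorylation serines are mutated; TAZ-CAMTA1 and YAP-TFE3, the fusion proteins of epithelioid hemangioendothelioma; and CAMTA1 and TFE3, the full-length fusion partners. The constructs carried a Flag tag and came from retroviral vectors kept under G418 selection, and cells had reached 90% confluence 48 h before they were collected, apart from CAMTA1, for which the labels give sub-confluence while the study's ChIP methods give the same density for all. The labels' protocol text describes a Flag antibody although the antibody label reads H3K27ac, and the 14 input libraries were not analysed here. The 8 libraries labelled TAZ4SA, TAZ-CAMTA1, YAP5SA or YAP-TFE3 are called TAZ/YAP libraries below, and the 6 labelled empty vector, CAMTA1 or TFE3 are called controls.

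The labels and the lists disagreed. In 14 of 14 lists the names of the peaks carried another construct than the label: CAMTA1 for the empty vector label, empty vector for TAZ4SA, TAZ4SA for TAZ-CAMTA1, TAZ-CAMTA1 for CAMTA1, TFE3 for YAP5SA, YAP5SA for YAP-TFE3 and YAP-TFE3 for TFE3. In 4 lists, those labelled TAZ-CAMTA1 and TFE3, the replicate number differed too. Libraries are called here by their labels, and the comparisons between groups of constructs are also given by peak names. The lists held between 5721 peaks over 3.695 Mb (TFE3 replicate 1) and 102009 peaks over 174.7 Mb (TAZ4SA replicate 1), with a median of 45074.5, and the second shortest held 21748. TFE3 replicate 1 stood apart by its length, so its values are named, and tests by label on which it decides the sign are also given without it.

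The RefSeq promoter set used (GRCh38.p14) held 2 of the 3 genes, CCN2 and ANKRD1. Their sequences, 250 bases upstream of the start on the gene's strand, were searched for the letters that TEAD factors (GGAATG) and AP-1 (TGANTCA) bind. They are printed 5′ to 3′ with those letters in capitals, CCN2 at chr6:131951373-131951622 and ANKRD1 at chr10:90921088-90921337, both on the minus strand:
CCN2: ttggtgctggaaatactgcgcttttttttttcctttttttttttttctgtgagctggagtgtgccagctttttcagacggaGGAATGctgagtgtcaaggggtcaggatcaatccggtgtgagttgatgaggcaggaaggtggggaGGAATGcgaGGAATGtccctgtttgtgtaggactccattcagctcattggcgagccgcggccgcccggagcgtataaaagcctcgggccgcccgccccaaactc
ANKRD1: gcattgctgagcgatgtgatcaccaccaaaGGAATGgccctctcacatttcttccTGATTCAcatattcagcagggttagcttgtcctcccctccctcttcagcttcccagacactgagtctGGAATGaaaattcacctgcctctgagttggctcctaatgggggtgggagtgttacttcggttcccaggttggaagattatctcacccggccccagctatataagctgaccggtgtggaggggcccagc
CCN1 had no entry and was not searched. The CCN2 promoter held GGAATG with its first base 169, 104 and 95 bases upstream of the start. The ANKRD1 promoter held it 220 and 128 bases upstream, with TGATTCA between them at 195. The motifs were searched on both strands and did not overlap. Of 35116 RefSeq promoters of this length, 11.9% held at least 1 GGAATG, 0.940% at least 2 and 0.0826% (29 promoters) at least 3. TGANTCA occurred in 6.57%, and 0.0997% (35 promoters) held at least 2 GGAATG together with TGANTCA. These matches describe the letters in the window and not binding in these cells.

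All 3 genes lay in acetylated chromatin, each in its own form. A single block over CCN1 ran from several kb upstream into the gene, CCN2 had a peak at its start and another upstream that merged in some lists, and ANKRD1 had a weak promoter peak below a stronger region further upstream. The window of 2 kb around summits held CCN1 in 1 of 14 lists (TFE3 replicate 1), CCN2 in 13 (not YAP5SA replicate 1) and ANKRD1 in 13 (not TFE3 replicate 1). When any peak reaching to within 2 kb of the start was counted instead, by at least 1 bp, the numbers were 14, 14 and 13 lists. A peak covered the start site itself in 14, 14 and 8 lists. Of all merged regions, 2.93% had a peak in all 14 lists and 7.67% in 13 or 14.

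**Figure D1:**
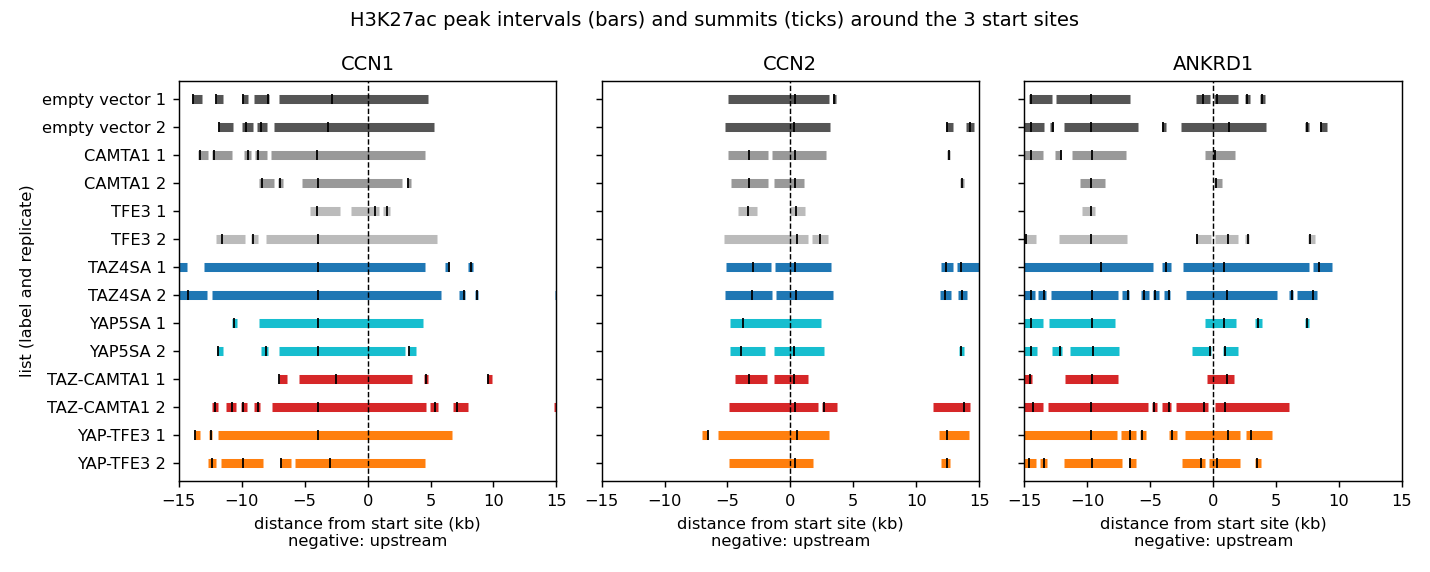
Peaks of each list (rows, label and replicate) within 15 kb of the start sites of CCN1, CCN2 and ANKRD1, with distance in kb on the x axis and upstream to the left; bars are peak intervals and ticks are summits. A single long peak covers the CCN1 start in 13 lists, the CCN2 block is split in 7 lists, and ANKRD1 shows a peak about 9.66 kb upstream in 14 lists.

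CCN1 carried the widest and highest-ranked H3K27ac of the 3 genes. Fold enrichment at the summit, the fragment pileup over the local background as MACS2 gives it, was 24.5 and 28.5 with empty vector, 46.6 and 41.7 with TAZ4SA, and 20.6 and 24.8 with TAZ-CAMTA1. It was 27.6 and 17.6 with CAMTA1, 33.0 and 17.6 with YAP5SA, 28.8 and 21.4 with YAP-TFE3, and 6.64 and 30.1 with TFE3. The TAZ4SA libraries were the highest and TFE3 replicate 1 the lowest, and the other labels overlapped.

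The lists differed in length and in fold enrichment over all peaks, so each peak was also ranked within its own list by −log10 p, and the rank is given as the percentage of the list's peaks at or below it. A percentile depends on the length of the list as well as on the peak. CCN1 stood at 98.9 to 99.7 in 13 lists, which was rank 127 to 866 from the top, and at 89.2 in TFE3 replicate 1. By that measure the TAZ4SA libraries, at 99.2 and 99.4, were no higher than the empty vector libraries, at 99.7 and 99.6. The fragment count behind the CCN1 summits was 33 to 168 with a median of 101.5, the deepest of the 3 genes.

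In those 13 lists the CCN1 peak was 7997 to 18658 bp wide (median 12250), and by width it was among the 525 widest peaks of any list. Counted from the start, with negative positions upstream, it began at −12964 to −5227 bp and ended at 2769 to 6736 bp, so 55.8 to 73.9% of it lay upstream. The summit was at −3988 to −2475 bp (median −3951), outside the 2 kb window. In TFE3 replicate 1 the same block was broken into separate peaks: the one over the start was 2186 bp wide, and the strongest, with a fold of 15.2 at percentile 99.0, reached from −4546 to −2159 bp, beyond the 2 kb window.

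The CCN2 promoter was acetylated in every list, with a fold below that of CCN1 in 13 of 14 lists and slightly above it in empty vector replicate 2. Its fold was 19.3 and 28.9 with empty vector, 30.8 and 21.7 with TAZ4SA, 11.5 and 15.7 with TAZ-CAMTA1, and 16.2 and 9.71 with CAMTA1. With YAP5SA it was 14.6 and 16.1, with YAP-TFE3 24.5 and 17.3, and with TFE3 4.60 and 12.95. The empty vector libraries lay within the range of the TAZ/YAP libraries, and TFE3 replicate 1 was again the lowest. Each value is that of the strongest peak reaching to within 2 kb of the start. In TAZ-CAMTA1 replicate 1 that was a separate upstream peak, and the peak over its start had a fold of 8.11. In YAP5SA replicate 1 the summit lay at −3762 bp.

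Ranked within its list, CCN2 stood at 97.7 and 99.1 with empty vector, 96.7 and 96.6 with TAZ4SA, 93.5 and 93.7 with TAZ-CAMTA1, and 97.6 and 95.5 with CAMTA1. The percentile was 94.4 and 96.8 with YAP5SA, 98.3 and 97.3 with YAP-TFE3, and 37.2 and 93.8 with TFE3. Apart from TFE3 replicate 1 the lists thus spanned 93.5 to 99.1, and the libraries of neighbouring labels in that order overlapped or differed by a few points. The value of TAZ-CAMTA1 replicate 1 is again that of the upstream peak, and its peak over the start stood at 88.1. In TFE3 replicate 1 a stronger upstream peak, beyond the 2 kb window, stood at 91.6. Summit fragments numbered 14 to 97 with a median of 68.

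CCN2 acetylation came as a peak at the start and one upstream. In 13 lists the peak over the start had its summit 286 to 546 bp inside the gene, and in YAP5SA replicate 1 at −3762 bp. A single peak covered both parts in 7 lists (both empty vector and both YAP-TFE3 lists, and YAP5SA replicate 1, TAZ-CAMTA1 replicate 2 and TFE3 replicate 2). In the other 7 lists a gap of 302 to 2678 bp (median 437) parted them, and its end nearest the start was at −1429 to −1 bp. In the split lists the fold was 4.60 to 30.8 at the start and 7.85 to 15.4 upstream. The upstream part was the higher in 2 of the 7, TAZ-CAMTA1 replicate 1 (8.11 at the start, 11.5 upstream) and TFE3 replicate 1 (4.60 and 7.85).

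ANKRD1 had the lowest median promoter fold of the 3 genes, 7.39 over 13 lists. Its fold was 5.79 and 7.98 with empty vector, 10.7 and 11.6 with TAZ4SA, 7.19 and 12.9 with TAZ-CAMTA1, and 4.52 and 4.88 with CAMTA1. It was 7.39 and 5.53 with YAP5SA, 10.5 and 8.12 with YAP-TFE3, and 6.72 in TFE3 replicate 2. TFE3 replicate 1 had no peak within 2 kb. The TAZ4SA and YAP-TFE3 libraries lay above all controls, the YAP5SA libraries among them, and 1 TAZ-CAMTA1 library above and the other among them.

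By rank the order of the labels at ANKRD1 was TAZ4SA, with a percentile of 86.2 ± 1.28 (SD, n = 2), YAP-TFE3 at 82.7 ± 4.26, TAZ-CAMTA1 at 80.0 ± 8.10, empty vector at 70.2 ± 9.41, YAP5SA at 65.3 ± 6.33 and CAMTA1 at 51.8 ± 5.43. The single TFE3 value was 71.6. Neighbouring labels overlapped in their libraries from TAZ4SA down to YAP5SA, whereas both CAMTA1 libraries, at 55.6 and 47.9, lay below every library with a peak of another label. The order depends on list length: counted from the top of the list, the ANKRD1 peak was 15013th and 12782nd with TAZ4SA, whose lists are the longest, 5600th and 6909th with TAZ-CAMTA1, and 8234th and 8067th with YAP-TFE3. It was 9403rd and 11854th with YAP5SA, 15622nd and 11541st with empty vector, 21294th and 16284th with CAMTA1, and 13447th in TFE3 replicate 2. By that count the fusion libraries came first and the TAZ4SA libraries lay among the controls. Summit fragments numbered 11 to 35 (median 26), so counting error is larger at ANKRD1 than at CCN1 or CCN2.

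**Figure D2:**
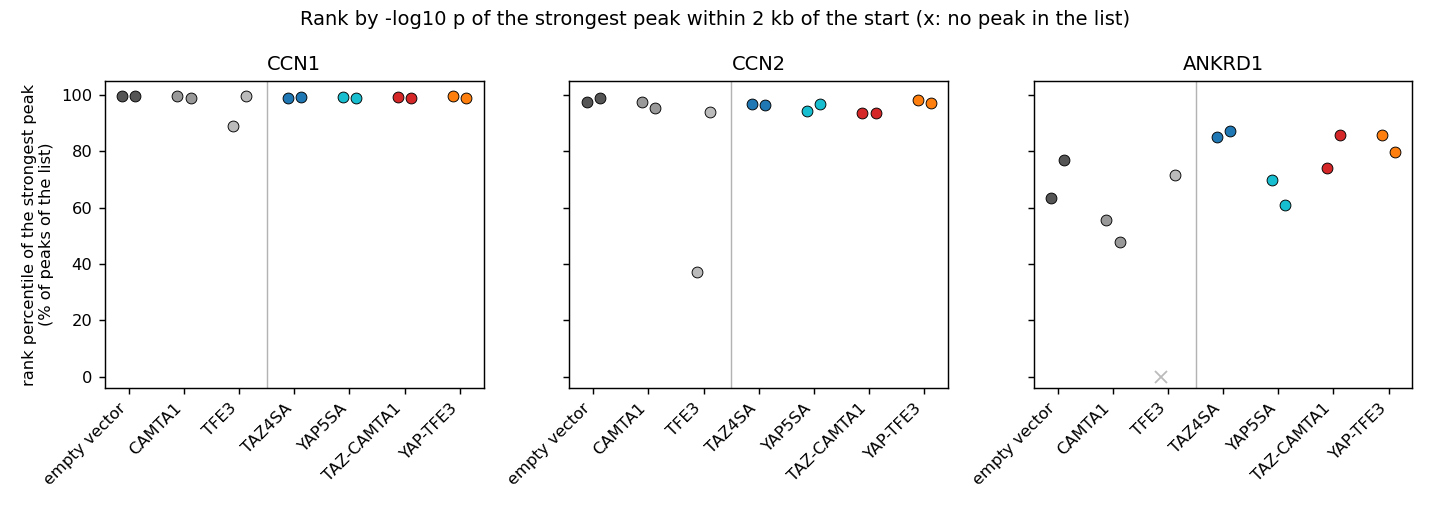
Percentage of each list's peaks that rank at or below the strongest peak reaching to within 2 kb of each start site, ranked by −log10 p, with 1 point per library, labels on the x axis and controls left of the grey line; a cross marks a list with no peak. CCN1 and CCN2 sit near the top of every list but TFE3 replicate 1, while ANKRD1 runs from 47.9 to 87.1.

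A peak covered the ANKRD1 start in 8 lists and was 2136 to 10045 bp wide there. In 4 lists (empty vector replicate 1, TAZ-CAMTA1 replicate 2, YAP5SA replicate 2 and TFE3 replicate 2) peaks lay on both sides of the start with none over it, parted by 321 to 958 bp (median 458). In CAMTA1 replicate 2 the only peak lay 97 to 701 bp inside the gene. The gap in those 4 lists began at −453 to −160 bp.

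A region upstream of ANKRD1, at chr10:92685368-92698577 (hg19), was present in 14 of 14 lists, TFE3 replicate 1 included. Its median summit lay 9.66 kb upstream of the start, with a range of −9743 to −8889 bp. Its fold was 16.7 and 18.9 with empty vector, 21.7 and 19.0 with TAZ4SA, 8.59 and 15.9 with TAZ-CAMTA1, 17.2 and 9.68 with CAMTA1, 19.5 and 18.6 with YAP5SA, 23.6 and 19.3 with YAP-TFE3, and 8.09 and 10.5 with TFE3. In 13 of the 13 lists with a promoter peak the upstream fold was the higher.

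The ratio of upstream to promoter fold at ANKRD1 was 2.89 and 2.37 with empty vector, 2.03 and 1.64 with TAZ4SA, 1.19 and 1.23 with TAZ-CAMTA1, 3.81 and 1.99 with CAMTA1, 2.64 and 3.36 with YAP5SA, 2.25 and 2.38 with YAP-TFE3, and 1.56 in TFE3 replicate 2. The TAZ-CAMTA1 libraries had the lowest ratios. The median was 2.14 over the TAZ/YAP libraries and 2.37 over the controls, and the ranges overlapped. By peak names the medians were 1.99 and 2.51, in that order. By rank the region stood at 85.9 to 98.1 (median 94.5), near CCN2's promoter.

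**Figure D3:**
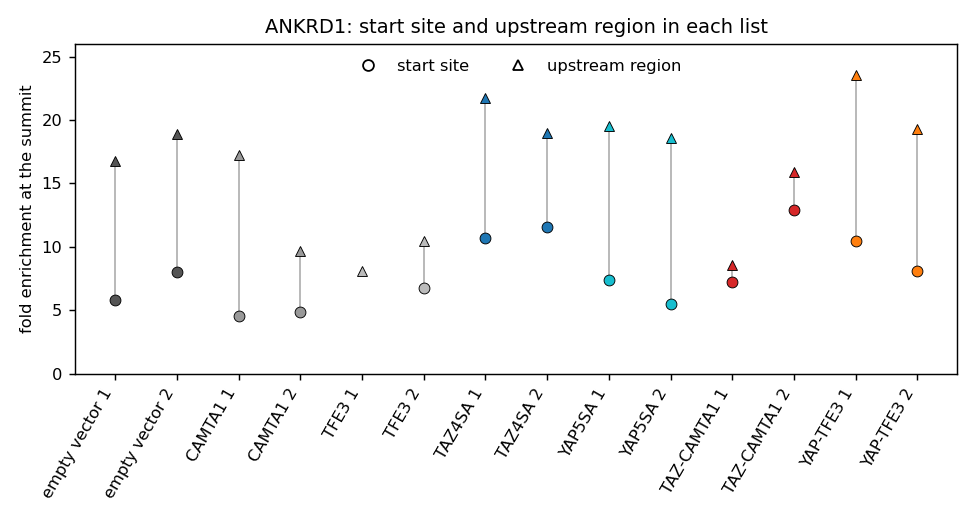
Fold enrichment at the ANKRD1 start site (circles) and at the region about 9.66 kb upstream (triangles) in each library, with lines joining values of the same list. The upstream value is higher in 13 of 13 lists that have both, and the values lie closest in the TAZ-CAMTA1 lists, with ratios of 1.19 and 1.23.

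Within 100 kb, CCN1 had 53 merged regions, CCN2 9 and ANKRD1 20. Of these, 5, 1 and 2 had a peak in 13 or 14 lists, and 33, 4 and 10 in a single list. Peaks in the CCN1 neighbourhood numbered 3 to 36 per list (median 21), in that of CCN2 2 to 7 (median 3) and in that of ANKRD1 1 to 20 (median 9.5). The TAZ4SA lists, the longest, held the most peaks around the 3 genes together, 58 and 60. Per 1000 peaks of the list the TAZ4SA lists were instead the lowest around CCN1, at 0.353 and 0.333, and over the 14 lists the ranges were 0.333 to 0.736, 0.0423 to 0.350 and 0.125 to 0.331 at CCN1, CCN2 and ANKRD1.

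The regions that lasted across lists around CCN1 lay 84.8 kb upstream (13 lists, median percentile 66.8), 59.2 kb upstream (13 lists, 76.6), 32.4 kb upstream (12 lists, 62.8), 31.0 kb downstream (13 lists, 88.1) and 48.6 kb downstream (13 lists, 82.7). The strongest was the one 31.0 kb downstream, at chr1:86066938-86084301, whose fold ran from 5.32 to 22.3 with a median of 10.2. Its fold was 11.4 and 12.5 with empty vector, 6.88 and 12.4 with TAZ4SA, 10.2 and 17.4 with TAZ-CAMTA1, 9.02 and 9.71 with CAMTA1, 5.32 and 8.95 with YAP5SA, 22.3 and 13.5 with YAP-TFE3, and 7.42 in TFE3 replicate 2. YAP-TFE3 replicate 1 was the highest library, and the empty vector libraries lay within the range of the TAZ/YAP libraries. CCN2 stood alone by comparison, and the most frequent region besides its promoter was 13.5 kb downstream in 9 lists. ANKRD1 had further regions 62.6 kb downstream (12 lists, median percentile 74.8) and 49.2 kb downstream (10 lists).

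Of the 82 neighbourhood regions, 35 were found in 2 or more lists. Of these 35, 13 had peaks in TAZ/YAP libraries only (9 around CCN1, 2 around CCN2 and 2 around ANKRD1) and 0 in controls only. Over all 61872 regions of 2 or more lists, 36.7% had peaks in TAZ/YAP libraries only and 0.449% in controls only, so the share around the 3 genes was near that of the genome. Each of the 13 regions included a TAZ4SA list, which is an empty vector list by its peak names. Counted by peak names, 0 of the 35 had peaks of TAZ/YAP constructs only and 5 of controls only, beside 4.45% and 26.9% of all regions of 2 or more lists. The most widespread of the 13 lay 16.4 kb downstream of CCN1, in both TAZ4SA lists, TAZ-CAMTA1 replicate 2 and YAP-TFE3 replicate 1, and 86.9 kb downstream of CCN2, in both TAZ4SA and both YAP-TFE3 lists. Of the 47 regions of a single list, 27 were in a TAZ4SA list, the longest lists and those whose peak names read empty vector.

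**Figure D4:**
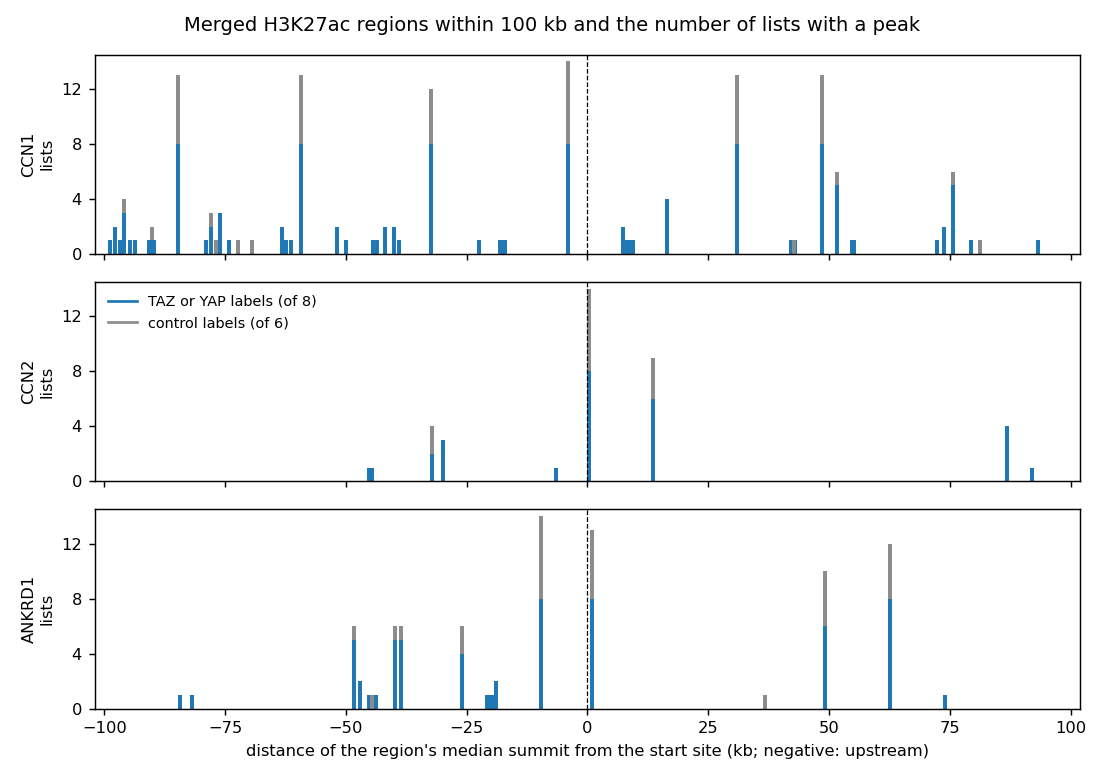
Merged regions within 100 kb of each start site, placed by the distance in kb of their median summit (upstream to the left), with bar height as the number of lists with a peak, stacked for the 8 TAZ/YAP libraries (blue) and the 6 controls (grey). CCN1 has 5 regions in 13 or 14 lists, CCN2 has 1 and ANKRD1 has 2, and most of the rest appear in 1 list.

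Whether the TAZ/YAP constructs raised H3K27ac at the 3 promoters relative to the controls was tested with limma on log2 fold enrichment, centred on each library's median, over every genomic window with a peak in all lists used. CCN1 and CCN2 were fitted over 3949 windows of 14 lists, counting any peak reaching to within 2 kb, and ANKRD1 over 9539 windows of 13 lists with summits within 2 kb, without TFE3 replicate 1, which had no ANKRD1 peak. At CCN1 and CCN2 the fitted summit could thus lie outside 2 kb. At CCN1 it lay at −3988 to −2475 bp in 13 lists. In TFE3 replicate 1 it lay at 603 bp, and a stronger upstream peak (fold 15.2) was out of reach. At CCN2 it lay at −3281 bp in TAZ-CAMTA1 replicate 1, −3762 bp in YAP5SA replicate 1 and inside the gene elsewhere. Values are differences in log2 fold enrichment with their standard error, and p-values were Benjamini-Hochberg adjusted over all windows of the fit. They measure only the spread between these libraries. With summits required within 2 kb in all 14 lists, none of the 3 genes could be fitted, and of those 3685 windows 0%, 7% and 2.28% were called in the 3 comparisons below, with 0.145% of the 22110 tests against the empty vector. In bulk ChIP-seq a smaller share of cells with the mark and less mark per cell cannot be told apart.

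At CCN1 the TAZ/YAP libraries and the controls did not differ detectably. The centred log2 fold of CCN1 was 0.70 to 1.51 (median 0.89) in the 8 TAZ/YAP libraries and 0.44 to 1.17 (median 0.98) in the 6 controls, so the groups overlapped. The difference was 0.09 (SE 0.19, adjusted p = 0.935), and −0.05 without TFE3 replicate 1. By this test 0% of the 3949 windows were called, with 295 at an unadjusted p under 0.05.

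CCN2 gave the same size of difference. Its centred log2 fold was −0.14 to 0.86 (median 0.49) in the TAZ/YAP libraries and −0.09 to 1.03 (median 0.19) in the controls. The difference was 0.09 (SE 0.18, adjusted p = 0.928). The highest library of all was empty vector replicate 2.

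ANKRD1 was higher in the TAZ/YAP libraries on average, without passing the test. Its centred log2 fold was −0.99 to 0.35 (median −0.10) there and −1.04 to −0.40 (median −0.59) in 5 controls. The difference was 0.43 (SE 0.19, adjusted p = 0.662), in a fit that called 0% of 9539 windows and had 647 at an unadjusted p under 0.05. After centring the TAZ4SA libraries, at −0.99 and −0.64, were no longer above the controls, and the TAZ-CAMTA1 libraries, at 0.35 and 0.13, were the highest.

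Rank percentiles, which depend on list length, were compared by an exact two-sided permutation over the 3003 ways to choose 6 of 14 libraries. A list without a peak counted as 0, which was TFE3 replicate 1 at ANKRD1 and YAP5SA replicate 1 at CCN2. The mean percentile of ANKRD1 was 78.5 in the TAZ/YAP libraries and 52.6 in the controls. The difference of 25.9 had an exact permutation p = 0.00866 and an adjusted p = 1 over 75770 windows, of which 0% were called and 1358 had an unadjusted p under 0.05. It thus failed the correction. With all lists shortened to the 5721 peaks of the shortest, 1 list kept an ANKRD1 peak and the difference was 0.267 (exact permutation p = 1). On the log10 scale of the rank itself it was 0.146 (exact permutation p = 0.132). The part of list length in the percentile difference was not tested beyond these values. Without TFE3 replicate 1 it was 15.4 (exact permutation p = 0.0272), and by peak names it was −11.3 (p = 0.444). CCN2, with summits within 2 kb, differed by −3.36 (exact permutation p = 0.807), and by 8.57 without YAP5SA replicate 1, the TAZ/YAP library with no summit there. CCN1, counting any peak within 2 kb, differed by 1.48 (exact permutation p = 0.446), and by −0.238 without TFE3 replicate 1. Neither sign was stable.

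The fusion proteins were next set against the active forms TAZ4SA and YAP5SA. ANKRD1 was 0.66 higher with the fusions on the log2 scale (SE 0.23, limma adjusted p = 0.0497). After centring, the 4 fusion libraries lay at −0.03 to 0.35 and the 4 libraries of the active forms at −0.99 to −0.17. Before centring the groups overlapped, with folds of 7.19 to 12.9 for the fusions and 5.53 to 11.6 for the active forms. The share of all windows in which centring leaves these groups apart was not counted. In that fit 13.5% of 9539 windows were called, so a call was common, and ANKRD1's was at the threshold. It was lost when any peak within 2 kb was counted (0.64, adjusted p = 0.0541), with quantile normalization (0.59, adjusted p = 0.0879), with a window of 5 kb (0.64, adjusted p = 0.0532), and in each of the 13 fits that left out a further library, where the adjusted p was 0.0506 to 0.199 and highest without TAZ4SA replicate 1.

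CCN2 was 0.33 higher with the fusions than with the active forms (SE 0.23, adjusted p = 0.455) and CCN1 0.13 higher (SE 0.24, adjusted p = 0.814), beside 7.60% of 3949 windows called. Neither passed the test. At CCN2 the YAP-TFE3 libraries, with centred log2 folds of 0.86 and 0.67, were level with or above YAP5SA replicate 2 at 0.68, while TAZ-CAMTA1 replicate 2 lay at 0.09. TAZ-CAMTA1 replicate 1, at 0.66, was valued by its upstream peak (fold 11.5), and the peak over its start had a fold of 8.11.

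Against the full-length partners CAMTA1 and TFE3, the fusions were 0.81 higher at ANKRD1 (SE 0.26, adjusted p = 0.0781, 3.17% of windows called), 0.51 higher at CCN2 (SE 0.23, adjusted p = 0.254, 2.46% called) and 0.18 higher at CCN1 (SE 0.24, adjusted p = 0.779, and −0.08 without TFE3 replicate 1). None passed. The centred values at ANKRD1 were −0.03 to 0.35 for the fusions and −1.04 to −0.55 for the partners. How many of all windows part these groups was not counted. If the CAMTA1 cells were less dense at collection, as the labels have it, density and construct cannot be told apart in these libraries.

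Whether the step from active form to fusion differed between the TAZ and YAP arms was tested as an interaction. It was 0.79 at ANKRD1 (SE 0.46, adjusted p = 0.581), 0.49 at CCN1 (adjusted p = 0.753) and 0.13 at CCN2 (adjusted p = 0.950). No difference between the arms was detectable.

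Each construct was set against the 2 empty vector libraries, which all 6 comparisons share. At ANKRD1 the difference was −0.27 for TAZ4SA, 0.79 for TAZ-CAMTA1 (adjusted p = 0.442), 0.28 for YAP5SA, 0.55 for YAP-TFE3, −0.27 for CAMTA1 and −0.01 for the single TFE3 library. At CCN2 it was −0.84 for TAZ4SA (SE 0.33, adjusted p = 0.231), −0.44 for TAZ-CAMTA1, −0.32 for YAP5SA, −0.05 for YAP-TFE3, −0.63 for CAMTA1 and −0.89 for TFE3 (adjusted p = 0.511). At CCN1 it was −0.23, 0.15, 0.17, 0.06, 0.01 and −0.18 in the same order. Without TFE3 replicate 1 the TFE3 value was 0.20 at CCN1 and −0.85 at CCN2, from a single library each. Of these 18 differences 0 passed in limma, beside 0.173% of the 23694 tests over all windows of 14 lists and 0.355% of the 57234 over 13 lists. At an unadjusted p under 0.05 there were 3 of 18 (TAZ-CAMTA1 at ANKRD1, and TAZ4SA and TFE3 at CCN2), beside 8.85% and 9.96% of the same tests over all windows.

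**Figure D5:**
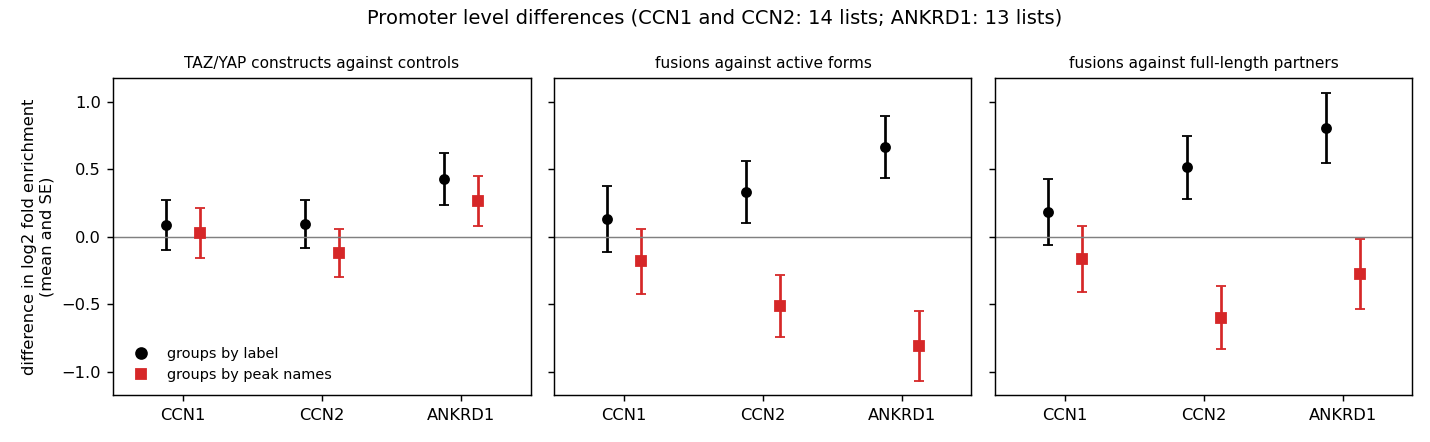
Differences in centred log2 fold enrichment at each promoter for the 3 comparisons, as mean and SE from limma, with libraries grouped by label (black circles) or by the construct in the peak names (red squares). By label ANKRD1 lies furthest above 0 in each comparison. By peak names the fusions lie below the active forms at all 3 genes, at CCN1 only with TFE3 replicate 1 included.

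By peak names the fusions were the libraries labelled CAMTA1 and TFE3, and the active forms those labelled TAZ-CAMTA1 and YAP-TFE3. Fusions minus active forms is then the label comparison of fusions and partners with its sign reversed, and not a second result. Fusions minus active forms then gave −0.81 at ANKRD1 (SE 0.26, adjusted p = 0.0781, beside 3.17% of windows called), −0.51 at CCN2 (adjusted p = 0.254) and −0.18 at CCN1. Fusions minus full-length partners gave −0.28, −0.60 and −0.17 at ANKRD1, CCN2 and CCN1, beside 0% of windows called in 13 lists and 0.0506% in 14. The TAZ/YAP constructs minus controls gave 0.26 at ANKRD1 (adjusted p = 0.511), −0.12 at CCN2 and 0.03 at CCN1, beside 2.38% of windows called in 13 lists and 1.60% in 14.

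By peak names 1 of the 18 differences from the empty vector passed, TAZ4SA at ANKRD1, at 1.06 (SE 0.33, adjusted p = 0.0450), where 6.04% of 9539 windows were called. The other constructs differed from the empty vector by −0.00 (TAZ-CAMTA1) to 0.82 (YAP5SA, adjusted p = 0.0961) at ANKRD1, and all 6 by −0.05 (YAP-TFE3) to 0.84 (CAMTA1) at CCN2 and 0.06 (YAP-TFE3) to 0.40 (TFE3) at CCN1. The interaction of arm and fusion was −0.51, 0.64 and 0.10 at ANKRD1, CCN2 and CCN1. Over the 6 constructs 4.04% of tests were called in 13 lists and 2.86% in 14. The call at ANKRD1 sets the libraries labelled TAZ-CAMTA1, with folds of 7.19 and 12.9, against those labelled TAZ4SA, with folds of 10.7 and 11.6, so the difference seen after centring was not seen in the uncentred folds. The sign of the fusion comparisons depended on the naming at all 3 genes, and that of TAZ/YAP constructs minus controls at CCN2. At CCN1 the sign of fusions minus active forms by peak names also rested on TFE3 replicate 1. Its mirror by label, fusions minus partners, was −0.08 without that library. The lists do not settle which naming is right.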

How the data were processed

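H3K27ac ChIP-seq peak lists of 14 libraries were analysed, 2 for each of 7 labels. As the study's methods state, the authors used Atropos to trim reads, aligned them with BWA-MEM to GRCh37/hg19, removed reads mapping to several places and greylist regions, and ran MACS2 for narrow peaks on paired-end fragments. The submitters' processing notes name bcl2fastq, BWA and MACS2 without versions. Each deposited peak has a fold enrichment (a ratio over the local background, as the authors' caller gave it) and its −log10 p-value and −log10 q-value. The methods give a q limit of 0.1 and pooled replicates, whereas the deposited lists are separate for each library and their lowest −log10 q was 1.30. Reads and inputs were not used, so read depth is unknown; with MACS2's fold taken as the fragment pileup plus 1 over the background plus 1, 53 of 53 member peaks gave whole summit fragments within 0.05.

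The 3 genes, windows and comparisons were chosen with earlier results of these data known. CCN1, CCN2 and ANKRD1 are named in every comparison. Peaks were assigned to 4 kb windows in all lists, and fold enrichment was compared with limma 3.58.1 (R 4.3.3) and ranks by an exact permutation, with Benjamini-Hochberg adjustment at 0.05. Summits within 2 kb in all 14 lists held none of the 3 genes. After this was seen, CCN1 and CCN2 were fitted with any peak reaching within 2 kb, and ANKRD1 with summits in 13 lists, which keeps the summit rule. The values of both fits were known when ANKRD1's was chosen, and both are given. No annotation of the lists' build was used here, so other YAP/TAZ targets were not located, and no coordinates were converted between builds. Alternatives were another naming, window size, q limit, list length, normalization, level, a replicate block and leaving out libraries. Fits were tested on simulated data. Other steps ran in Python 3.11.15 (pandas 2.3.3, scipy 1.17.1, numpy 2.4.6), with plots from matplotlib 3.10.9.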

Additional observations from a re-analysis of the deposited data

Results flagged for a closer look

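In 4 of 24 sets of 4 to 10 libraries examined (8 TAZ/YAP libraries or up to 6 controls, for several measures of the 3 genes), 1 library lay far from the others by Dixon's test, which chance gives in about 1 of 20 sets. All 4 were in the controls. TFE3 replicate 1 stood apart at CCN1 by rank, at percentile 89.2 where the nearest of the 6 controls was at 99.0. It stood apart at CCN2 by rank too, at 37.2 with the nearest at 93.8, and in the CCN2 neighbourhood, with 0.35 peaks per 1000 peaks of its list against 0.0959 in the nearest. Its list is the shortest, and the part of list length in these values was not tested. Both ranks are those of the peak over the start. The strongest peak of each block in that list lay upstream, beyond 2 kb, at percentile 99.0 for CCN1 and 91.6 for CCN2. At ANKRD1, empty vector replicate 2 had a promoter peak 6783 bp wide, where the nearest of 5 controls was 2370 bp.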

How the results depend on the processing

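The counts of windows called over the whole genome moved with the processing, and the cause was not tested except that leaving out TFE3 replicate 1 raised the number of windows tested. For TAZ/YAP constructs against controls, 0 windows of 3685 with summits were called, 56 by peak names, 1 with quantile normalization, 2 with −log10 p as the level, 1 with a window of 5 kb, and 0 to 1 (without YAP-TFE3 replicate 1) when each replicate was left out. For fusions against active forms, 258 became 84 by peak names, 116 at a −log10 q of at least 5, 8 with 14 lists shortened to 5721 peaks (equal length), 496 with −log10 p, 166 with a window of 1 kb, 1484 with any overlapping peak in 13 lists, and 118 (without TAZ4SA replicate 1) to 1292 (without TFE3 replicate 1) with a replicate left out. For fusions against full-length partners, 84 became 2, 34, 0, 265 and 338 under peak names, q limit, equal length, −log10 p and overlap in 13 lists, 1 without the CAMTA1 libraries, and 17 (without YAP-TFE3 replicate 1) to 302 (without TFE3 replicate 1). For constructs against empty vector, 32 became 596, 19, 0, 60 and 220 under the same 5 settings, 6 with quantile normalization, 20 with a window of 1 kb, and 0 (without empty vector replicate 2) to 203 (without TFE3 replicate 1).

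At CCN1 no call was made under any alternative. TAZ/YAP constructs minus controls turned to −0.111 with a window of 5 kb and spanned −0.0546 (without TFE3 replicate 1) to 0.211 with a replicate left out; without TAZ-CAMTA1 replicate 1 it was −0.00459. Fusions minus active forms turned to −0.183 by peak names and spanned −0.0532 (without TAZ-CAMTA1 replicate 1) to 0.32, with −0.0399 without YAP5SA replicate 2. Fusions minus partners turned to −0.166 by peak names and −0.119 with 5 kb, and spanned −0.0786 (without TFE3 replicate 1) to 0.372. At CCN2 no call was made either: by peak names the 3 comparisons gave −0.118, −0.512 and −0.599, and the first was −0.0365 with 5 kb. With a replicate left out they spanned 0.0229 (without TAZ-CAMTA1 replicate 1) to 0.165 (without TAZ-CAMTA1 replicate 2), 0.193 to 0.472 and 0.378 to 0.655, with the same 2 libraries at the ends. At ANKRD1, fusions minus active forms kept its call under 2 of 21 alternatives, −log10 p (adjusted p = 0.012) and 13 lists shortened to 21748 peaks (0.696, adjusted p = 0.0438), was −0.806 by peak names, and lost it at 0.663 with the replicate number as a block (adjusted p = 0.0538), 0.592 with quantile normalization, 0.643 with 5 kb, 0.643 without the CAMTA1 libraries, 0.643 with any overlapping peak, and 0.571 to 0.746 with a replicate left out. Fusions minus partners was −0.278 by peak names and passed at 0.86 with quantile normalization (adjusted p = 0.0454) and 1.2 with −log10 p (adjusted p = 0.0175). The replicate block changed no other call on the 3 genes, and replicate numbers did not pair the libraries: over 21 pairs of labels the correlation of same-numbered deviations was −0.0603 to 0.132 (median 0.0111) and above 0.1 in 1. By peak names 1 construct difference from empty vector passed in place of 0.

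The rank difference of CCN2 turned to 6.55 by peak names, 2 at the q limit, 0.0619 with 5 kb, 1.51 without the CAMTA1 libraries, was −15.3 with equal length, and spanned −13.3 (without TFE3 replicate 1) to 8.57 (without YAP5SA replicate 1, the list with no CCN2 summit in the window). That of ANKRD1 turned to −11.3 by peak names, was 0.267 with equal length (a peak in 1 list), 36.6 at the q limit and 0.146 on log10 ranks, and spanned 15.4 (without TFE3 replicate 1) to 30.8 with a replicate left out. That of CCN1 turned to −1.33 by peak names, −1.99 with equal length, −0.127 on log10 ranks, −0.161 with 5 kb, and spanned −0.238 (without TFE3 replicate 1) to 1.87. Lists with a CCN1 summit rose from 1 to 14 with 5 kb and to 14 with any overlapping peak, and lists with an ANKRD1 summit fell from 13 to 8 with 1 kb and 1 with equal length. In the rank comparison a list without a peak counted as 0, and a limma fit gave no value for a gene without a peak in a list of the fit. Summit fragments of 11 to 35 limit what ANKRD1 can show.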
